A study of Mus musculus with 167 samples.

Results

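The nuclear genes for the protein subunits of the mitochondrial respiratory chain and ATP synthase were followed in mouse embryonic fibroblasts (MEFs) that had been reprogrammed towards dendritic cells, and in dendritic cells of the spleen. Members were chosen by gene symbol: the structural Nduf genes of complex I, the Sdh genes of complex II and the Uqcr genes of complex III. For complex IV the rule took Cox4 to Cox8 genes with a, b or c after the number, and for complex V (ATP synthase) the Atp5 genes. Cox4i1 and Cox4i2 thus fell outside the rule. Cox6a2, the Ndufaf assembly factors and predicted genes were left out. The rule found 82 of 57010 gene identifiers, which carry 81 symbols because Atp5o has a second identifier. They comprised 37 identifiers of complex I, 4 of complex II, 8 of complex III, 15 of complex IV and 18 of complex V. They lie on 19 chromosomes, with 3 members (Ndufa1, Ndufb11 and Cox7b) on the X chromosome, so that no single locus holds the set. The rule uses symbols only, no measured value.

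Messenger RNA was measured by total RNA sequencing, with the libraries falling into 41 groups of 3 to 5. Lentiviral vectors delivered 3 transcription factors at a time to MEFs: PIB is Pu.1 (gene Spi1), Irf8 and Batf3; PIP is Pu.1, Irf4 and Prdm1; SII is Spib, Irf8 and Ikzf2. PIB, PIP and SII were given to MEFs of the C9a line, which are homozygous both for Clec9a Cre and for a Rosa26 tdTomato reporter. SII was also given to MEFs of the hCD2 line, on a C57BL/6 background, which carry hCD2 Cre and a Rosa26 YFP reporter as heterozygotes. In each line the reporter marks cells, and their descendants, in which the Clec9a or hCD2 promoter has driven Cre. Transduced cells were sorted on days 3, 6 and 9 as reporter positive, as CD45 positive (CD45, the product of Ptprc, is a surface protein of leukocytes) or as double positive. The double-positive cells, tdT+CD45+ or YFP+CD45+, entered the tests against their own untransduced MEFs, which were sorted as negative for reporter and CD45 (C9a.MEF and hCD2.MEF, 4 libraries each). Splenic cDC1 (XCR1+CD11b-, 3 libraries), cDC2 (CD11b+XCR1-, 3 libraries) and pDC (Siglec-H+B220+BST2+, 5 libraries) came from wild-type mice. The labels do not say whether libraries of a group came from separate cultures or animals, so p-values measure only the spread between these libraries. In bulk RNA, fewer cells of a type and less RNA per cell cannot be told apart.

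Oxidative phosphorylation passes electrons from NADH (complex I) and succinate (complex II) through complex III to oxygen at complex IV. Complexes I, III and IV pump protons across the inner mitochondrial membrane, and complex V uses the returning protons to make ATP. A few core subunits are encoded in mitochondrial DNA, all others in the nucleus, and several nuclear subunits have tissue-specific or oxygen-regulated isoforms. Quiescent dendritic cells are known to respire, and strong activation shifts many of them towards glycolysis; fibroblasts in culture use both.

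Promoters of subunit genes are known for binding sites of NRF-1, of ETS-family factors (GABP, also named NRF-2, is one; Pu.1 and Spib are others) and of YY1, so the promoters of 6 members are shown. In each complex the member with the largest rise in day 9 PIP cells relative to C9a.MEF was taken among those with a motif match, and Uqcr10 as the largest rise with a promoter in the table. The choice favours promoters with a match: 5 of the 6 shown hold the ETS core, against 16 of the 66 members that have a promoter. The sequences are from RefSeq, build GRCm38.p6 (mm10), each running from 250 bases before to 50 bases after the start of the gene. Such a promoter was found for 66 of the 82 members. Capitals mark matches to GCATGCG (core of the NRF-1 motif), CCGGAAG (ETS core) or ATGGCG (YY1 core) on either strand; all 6 genes lie on the minus strand, sequences read 5′ to 3′ along the gene, and the reverse complement of the ETS core reads CTTCCGG. Ndufs8 (chr19:3912725-3913024) encodes a core subunit of complex I, Sdhd (chr9:50603800-50604099) a membrane anchor of complex II, Uqcrh (chr4:116075021-116075320) the hinge protein of complex III, Cox6b1 (chr7:30626065-30626364) the general form of a complex IV subunit with a testis paralogue, and Atp5k (chr5:108434350-108434649) subunit e of complex V. Uqcr10 (chr11:4704295-4704594), a small complex III subunit has none of the 3 motifs in its window, and neither have Ndufa4 and Atp5o, which are described below.
Ndufs8: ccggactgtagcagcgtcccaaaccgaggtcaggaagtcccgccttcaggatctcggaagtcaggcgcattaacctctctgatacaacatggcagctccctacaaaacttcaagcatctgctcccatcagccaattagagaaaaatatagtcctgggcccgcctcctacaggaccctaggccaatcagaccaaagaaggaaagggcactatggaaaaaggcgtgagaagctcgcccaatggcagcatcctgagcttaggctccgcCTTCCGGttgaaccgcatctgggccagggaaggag
Sdhd: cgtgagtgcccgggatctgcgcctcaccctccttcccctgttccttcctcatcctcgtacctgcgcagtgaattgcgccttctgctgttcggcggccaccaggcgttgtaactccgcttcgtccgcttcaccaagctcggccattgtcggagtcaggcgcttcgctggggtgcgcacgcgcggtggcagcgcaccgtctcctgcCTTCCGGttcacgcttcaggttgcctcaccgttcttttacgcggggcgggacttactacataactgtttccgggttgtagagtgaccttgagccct
Uqcrh: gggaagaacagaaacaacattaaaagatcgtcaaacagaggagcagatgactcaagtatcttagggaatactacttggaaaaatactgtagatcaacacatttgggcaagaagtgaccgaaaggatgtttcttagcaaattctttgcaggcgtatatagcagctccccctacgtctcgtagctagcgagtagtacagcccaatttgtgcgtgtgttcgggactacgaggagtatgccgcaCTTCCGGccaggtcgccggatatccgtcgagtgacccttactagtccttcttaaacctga
Cox6b1: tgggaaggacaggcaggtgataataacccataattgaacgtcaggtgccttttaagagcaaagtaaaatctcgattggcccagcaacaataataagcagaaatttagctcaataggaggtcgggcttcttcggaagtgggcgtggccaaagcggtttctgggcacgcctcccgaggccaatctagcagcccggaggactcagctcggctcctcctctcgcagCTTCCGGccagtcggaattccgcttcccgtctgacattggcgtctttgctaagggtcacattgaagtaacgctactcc
Atp5k: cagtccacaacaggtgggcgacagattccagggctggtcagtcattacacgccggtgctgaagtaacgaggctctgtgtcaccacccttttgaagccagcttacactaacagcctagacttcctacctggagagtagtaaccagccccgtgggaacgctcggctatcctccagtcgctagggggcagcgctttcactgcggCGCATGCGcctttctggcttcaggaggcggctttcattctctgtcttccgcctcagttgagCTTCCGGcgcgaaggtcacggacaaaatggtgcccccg
Uqcr10: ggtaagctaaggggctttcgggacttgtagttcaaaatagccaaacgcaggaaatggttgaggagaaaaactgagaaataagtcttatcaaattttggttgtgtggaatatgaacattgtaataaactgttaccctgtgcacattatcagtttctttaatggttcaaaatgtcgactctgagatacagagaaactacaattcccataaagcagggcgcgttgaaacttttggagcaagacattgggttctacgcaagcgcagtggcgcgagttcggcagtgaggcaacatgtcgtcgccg

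The ETS core starts 10 bases before the start site in Uqcrh, 28 before it in Cox6b1 and 46 before it in Sdhd, and 16 and 13 bases after it in Ndufs8 and Atp5k. In Atp5k the NRF-1 core also matches on both strands at overlapping positions, 49 and 48 bases before the start. Among the 66 members, the NRF-1 core was in the promoter of 11 (16.7%, against 4.01% of all 27025 genes in the promoter table), the ETS core in 16 (24.2%, against 9.93%) and the YY1 core in 18 (27.3%, against 10.2%). Any of the 3 was found in 37 members (56.1%, against 20.96% of all genes). By complex, the ETS core was found in 4 of 32 members of complex I with a promoter, 2 of 3 of complex II, 2 of 5 of complex III, 3 of 13 of complex IV and 5 of 13 of complex V. A match describes letters only; no binding was measured. Members with no entry in the table included Atp5a1, Atp5f1, Atp5mpl, the second Atp5o identifier, Atp5s, Cox6c, Cox8c, Ndufa2, Ndufa4l2, Ndufb9, Ndufs1, Sdhc, Uqcrb, Uqcrc2 and Uqcrq.

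Libraries held 1146927 to 21976374 counts (median 10960122), 2 of them under 2000000. At day 9 the delivered factors matched the labels in every double-positive library: Irf8 was at 120 to 272 CPM (counts scaled to an equal library total) in PIB and at most 1.56 CPM in C9a.MEF, Irf4 at 333 to 401 CPM in PIP and at most 0.618 CPM in C9a.MEF, and Spib at 53.8 to 175 CPM in both SII lines together and at most 0.268 CPM in MEFs. Day 9 cells kept some fibroblast RNA. The summed level of 6 fibroblast markers was 5547 to 7028 CPM in PIB, 883 to 1167 in PIP, 1382 to 2115 in C9a.SII and 532 to 6420 in hCD2.SII, against 13374 to 14519 in C9a.MEF and 12083 to 14037 in hCD2.MEF. The summed level of 5 leukocyte markers was 481 to 611 CPM in PIB, 148.1 to 207 in PIP, 463 to 797 in C9a.SII and 489 to 865 in hCD2.SII, against at most 3.86 in both MEF groups. Cycling markers summed to 19.9 to 27.03 CPM in PIB and 20.6 to 25.5 in PIP, against 213 to 288 in C9a.MEF. The part of these differences in the results below was not tested. Factor levels went against the labels in 3 single-gate libraries: the library labelled PIB day 6 tdT+ replicate 4 (Irf8 1.99 CPM, Irf4 539 CPM), replicate 5 labelled PIP day 3 tdT+ (Irf4 3.94 CPM, Spib 112.4 CPM) and replicate 5 labelled C9a.SII day 6 tdT+ (Spib 0.405 CPM, Irf4 658 CPM). They entered no test. A further pair stood apart within their groups: pDC replicate 1 (1838064 counts, fibroblast markers 1144 CPM against 7.88 to 87.9 in the other pDC libraries) and hCD2.SII day 9 replicate 1 (fibroblast markers 6420 CPM, against 591 and 532).

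The members together took 0.242% to 0.448% of the counts of a group. Over all libraries the group means of their summed level ran between 4477 ± 228 CPM in double-positive PIP cells at day 6 (SD, n = 4) and 2418 ± 829 CPM in splenic pDC (n = 5), a 1.85-fold range. Both ends turn on doubted libraries. Without the 3 libraries whose factors went against their labels the highest mean was 4739 ± 142.1 CPM, in PIP day 3 tdT+ cells (n = 4). Without pDC replicate 1 the pDC mean was 2768 ± 322 CPM (n = 4), above cDC1, and the lowest mean was 2569 ± 365 CPM, in hCD2.SII day 9 CD45+ cells (n = 3). With all 4 left out, a choice made after seeing the data, the range was 1.84-fold. All 9 PIP groups and 7 of 9 PIB groups had a mean above the 3642 ± 68.3 CPM of C9a.MEF (n = 4), whereas all 9 C9a.SII groups were below it. Of the 9 hCD2.SII groups, 8 were below the 3617 ± 172 CPM of hCD2.MEF (n = 4). In double-positive PIB cells the mean was 3572 ± 615 CPM at day 3, 3801 ± 117.4 at day 6 and 3763 ± 178 at day 9. In PIP it was 4211 ± 319 at day 3, 4477 ± 228 at day 6 and 4160 ± 310 at day 9, in C9a.SII 3291 ± 517, 3072 ± 122.3 and 3056 ± 505, and in hCD2.SII 3269 ± 92.4, 2973 ± 172 and 2911 ± 325. Among splenic cells cDC2 had 3169 ± 171 CPM and cDC1 2702 ± 70.1 CPM (n = 3 each).

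The day 9 libraries show how far the groups overlapped. PIP libraries had 4051, 4303, 3786 and 4502 CPM and PIB libraries 3471, 3842, 3906, 3719 and 3878 CPM, against 3606, 3626, 3594 and 3742 CPM in C9a.MEF. Every PIP library thus lay above every C9a.MEF library, while PIB overlapped with C9a.MEF. C9a.SII libraries had 2331, 3472, 3108 and 3312 CPM, all below C9a.MEF, the lowest being the library of 1146927 counts. The hCD2.SII libraries had 3268, 2835 and 2631 CPM, against 3869, 3476, 3567 and 3558 CPM in hCD2.MEF, without overlap. The 3 libraries that went against their labels also stood apart in this sum. PIB day 6 tdT+ cells had 4206 ± 691 CPM with all libraries and 3862 ± 85.8 CPM without the library in doubt, PIP day 3 tdT+ cells 4356 ± 865 and 4739 ± 142.1 CPM, and C9a.SII day 6 tdT+ cells 3163 ± 929 and 2843 ± 682 CPM.

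**Figure D1:**
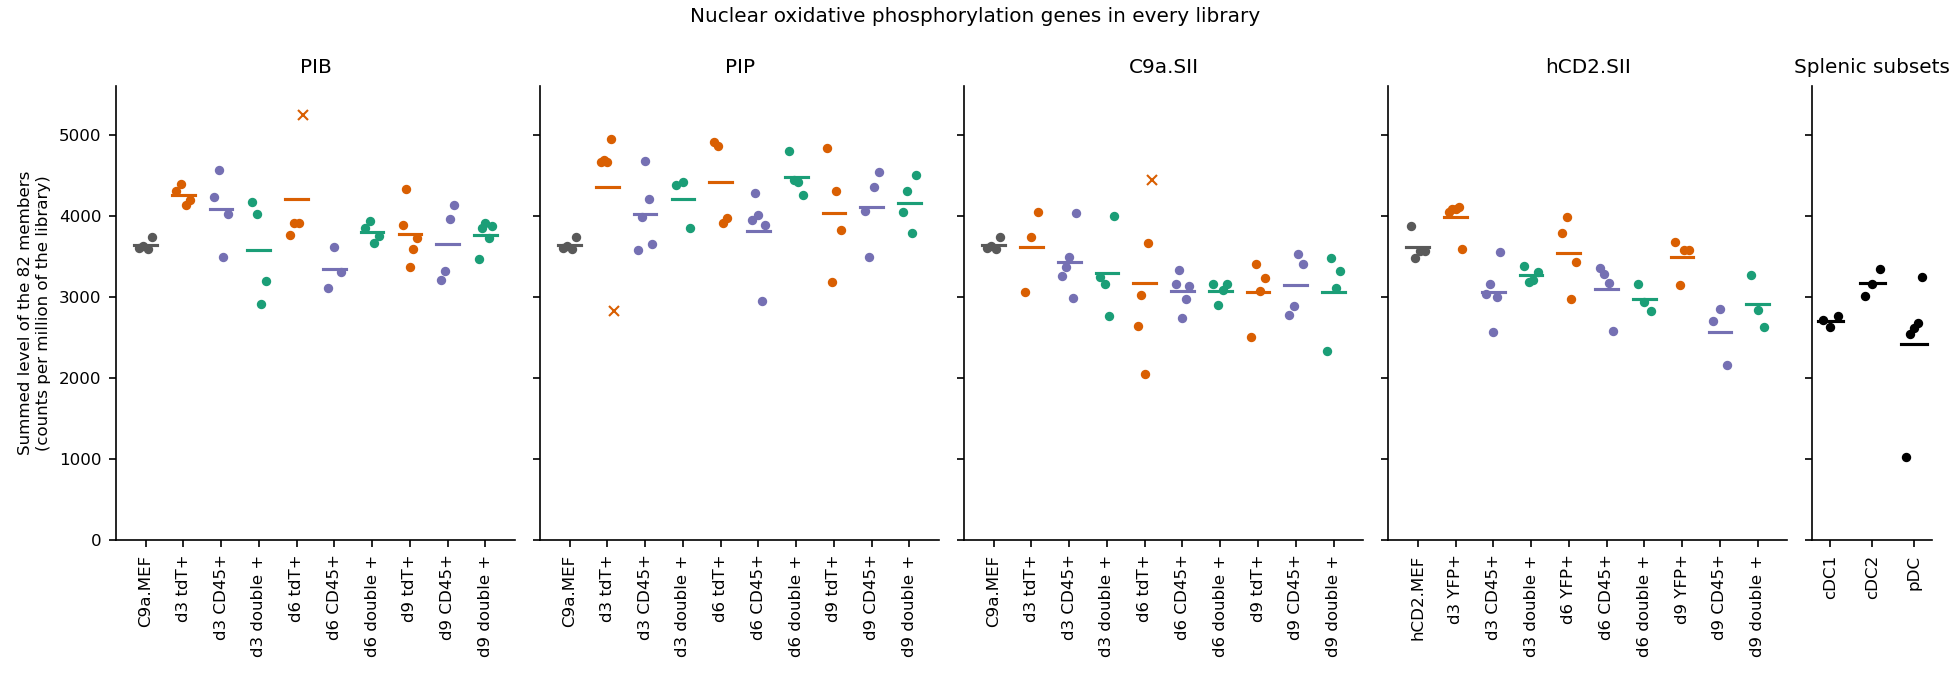
Summed level of the 82 members (CPM of the library total, vertical axis) in every library, by cocktail, day and sort gate, with the untransduced MEFs at the left of each panel and the splenic cells in a panel of their own; bars are group means and crosses the 3 libraries whose factors went against their label. PIP groups lie above C9a.MEF and C9a.SII groups below it, the group means over all libraries ranging between 2418 CPM in pDC and 4477 CPM in double-positive PIP cells at day 6; without the crossed libraries the highest is 4739 CPM, and without pDC replicate 1 the lowest is 2569 CPM.

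Each member's own level differed widely per unit of length. Averaged over the groups and divided by exon length, Atp5a1 (the alpha subunit of ATP synthase) was highest at 101.3 CPM per kb, followed by its catalytic partner Atp5b (beta) at 90.8 CPM per kb and by the complex IV subunits Cox6a1 and Cox8a at 73.97 and 73.8 CPM per kb. The length is that of all annotated exons of a gene merged, not of 1 transcript, and the order depends on it. Without the division Atp5b had a median of 387 CPM over all libraries, against 299.3 CPM for Atp5a1. Atp5h, a stalk subunit of complex V, and Ndufa13, an accessory subunit of complex I, had 53.5 and 53.4 CPM per kb. Many small subunits have processed pseudogenes, and how reads with several matches were counted is not given in the sources used here, so their levels are less certain than those of Atp5a1 or Sdha. Cox7a1, Cox7b2, Cox8b, Cox8c and the second Atp5o identifier were too low to be tested in any comparison. Cox7a1 and Cox8b are isoforms of heart and skeletal muscle, and Cox7b2 and Cox8c of testis.

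Day 9 PIP cells had more members called higher than the other day 9 cells tested against MEFs, and subunits of all 5 complexes were among them. Of 77 members tested, 59 rose and 2 fell in PIP cells relative to C9a.MEF (edgeR quasi-likelihood test, Benjamini-Hochberg adjusted p under 0.05), where 35.6% of all genes tested rose and 32.5% fell. In 52 members every PIP library was above every C9a.MEF library, where 32.1% of all genes were. The median log2 fold change of the members was 0.37, against 0.05 for all genes. Scaled by library totals instead of TMM factors, all genes had a median of -0.18, the members 0.15, and 35 members rose and 7 fell; relative to all genes the members' median was 0.32 under both scalings. All 4 complex II and all 8 complex III members rose (medians 0.62 and 0.56), as did 26 of 37 in complex I (2 fell), 10 of 11 in complex IV and 11 of 17 in complex V. The changes were small for single genes: of those called, only Uqcr10 rose and only Ndufa4l2 fell by 2-fold or more, where 15.2% and 14.5% of all genes did.

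The values are TMM-scaled CPM in the order of the replicates. In complex V, Atp5a1 had 492, 478, 457 and 480.2 CPM in PIP cells, against 268, 267, 266 and 277 CPM in C9a.MEF (log2 fold change 0.82 ± 0.04 SE, edgeR quasi-likelihood adjusted p = 3.3e-11). In complex III, Uqcr10 had 21.9, 19.9, 18.9 and 23.001 CPM in PIP cells, against 9.28, 11.3, 10.6 and 9.35 CPM in C9a.MEF (1.04 ± 0.10, adjusted p = 1.2e-07). Uqcrh, the hinge protein that helps cytochrome c bind, had 78.8, 71.6, 80.5 and 72.4 CPM, against 39.7, 35.04, 36.3 and 41.1 CPM (0.99 ± 0.07, adjusted p = 7.2e-10). No PIP library overlapped with a fibroblast library in these 3 genes. Sdha, the flavoprotein that oxidises succinate, had 191, 192, 163.7 and 191 CPM in PIP cells, against 108.9, 112.97, 119.4 and 120.1 CPM in C9a.MEF (0.68 ± 0.06, adjusted p = 2.2e-08). Ndufs8, an iron-sulphur subunit in the peripheral arm of complex I, had 21.97, 23.7, 24.3 and 30.6 CPM, against 10.6, 12.8, 15.01 and 15.4 CPM (0.90 ± 0.13, adjusted p = 1.2e-05). Atp5j, the coupling factor 6 of ATP synthase, had a log2 fold change of 0.00 (adjusted p = 0.98) with TMM factors and of -0.22 (adjusted p = 0.0106) by library totals.

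In PIB cells at day 9 the share of members that rose was near that of all genes, and the share that fell was below it. Of 77, 27 (35.1%) rose and 8 (10.4%) fell relative to C9a.MEF, where 29.1% of all genes rose and 27.8% fell. The median log2 fold change was 0.10, against -0.00 for all genes, and 0.061 without PIB replicate 2. In 18 members every PIB library was above every C9a.MEF library, where 25.1% of all genes were. With library totals 16 rose, and without C9a.MEF replicate 2, 4 fell. The members that rose included 3 of 4 in complex II, 5 of 8 in complex III, 5 of 11 in complex IV, 9 of 37 in complex I and 5 of 17 in complex V. Sdhd, which anchors complex II in the membrane, had 31.6, 34.02, 32.6, 34.1 and 32.5 CPM in PIB cells, against 18.9, 18.3, 20.2 and 23.97 CPM in C9a.MEF (log2 fold change 0.69 ± 0.08, edgeR adjusted p = 1.1e-05). Its partner anchor Sdhc averaged 41.8 ± 1.90 CPM (SD, n = 5) in PIB cells and 42.02 ± 2.89 CPM (n = 4) in C9a.MEF. Ndufa6, an accessory subunit of complex I, had 37.3, 40.5, 41.2, 39.99 and 41.6 CPM, against 26.999, 23.9, 27.2 and 28.3 CPM (0.59 ± 0.07, adjusted p = 6.8e-06). Atp5f1, subunit b of the stator of ATP synthase, had 100.1, 101.3, 107.1, 103.1 and 105.5 CPM, against 72.8, 76.7, 71.6 and 75.3 CPM (0.48 ± 0.05, adjusted p = 1.3e-06). These 3 genes separated every PIB library from every fibroblast library. So did Cox7c, a small subunit of complex IV, at 35.6, 36.7, 37.6, 32.4 and 23.7 CPM in PIB cells, against 23.1, 20.9, 22.03 and 20.8 CPM in C9a.MEF (0.62 ± 0.12, adjusted p = 0.00056). Its lowest value is from PIB replicate 5, whose mitochondrially encoded subunits summed to 4067 CPM, against 9053 to 9970 CPM in the other PIB libraries. Atp5b did not differ measurably, at 403 ± 9.82 CPM (n = 5) in PIB cells and 403 ± 15.5 CPM (n = 4) in C9a.MEF (0.00 ± 0.04). Ndufa5, an accessory subunit of complex I, fell: it had 13.1, 15.2, 13.3, 13.9 and 14.0 CPM, against 20.6, 19.1, 20.4 and 21.2 CPM (-0.55 ± 0.08, adjusted p = 5.3e-05).

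With SII fewer members rose than fell in both lines. In C9a.SII cells at day 9, 3 of 77 members (3.9%) rose and 23 (29.9%) fell relative to C9a.MEF. Of all genes, 23.4% rose and 24.3% fell. The share of members that fell was thus near that of all genes, and the share that rose was below it. The members' median log2 fold change was -0.12. In 28 members every C9a.SII library was below every C9a.MEF library, where 24% of all genes were. The count of 3 was 0 without C9a.MEF replicate 1, 1 without C9a.MEF replicate 2 or 3, and 5 without C9a.SII replicate 1, the library of 1146927 counts; by library totals it was 0. In hCD2.SII cells 1 rose and 24 fell relative to hCD2.MEF, where 20.2% of all genes rose and 17.8% fell, with a median of -0.31. In 34 members every hCD2.SII library was below every hCD2.MEF library, where 24.5% of all genes were. With the replicate number as a block, 0 rose and 11 fell, while the shares of all genes above are from the fit without a block. Same-numbered libraries correlated only weakly here (0.10 to 0.16), and the labels name no pairs, so whether the libraries are paired is not known. The number that fell was 50 without hCD2.SII replicate 1, the library of high fibroblast RNA, 13 without hCD2.SII replicate 2 or hCD2.MEF replicate 1, 14 without hCD2.MEF replicate 4 and 15 without hCD2.SII replicate 3; the median without hCD2.SII replicate 1 was -0.43. None rose when any 1 library was left out. The shares of all genes given above are those of the full fit, so these counts have no such share beside them. The members that fell were spread over the complexes: 11, 1, 2, 5 and 4 members of complexes I to V in C9a.SII, and 7, 1, 2, 5 and 9 in hCD2.SII.

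Uqcrb, a complex III subunit also named the ubiquinone-binding protein, had 23.6, 19.9, 22.8 and 21.9 CPM in C9a.SII cells, against 31.4, 30.3, 30.9 and 32.1 CPM in C9a.MEF (log2 fold change -0.52 ± 0.08, edgeR adjusted p = 0.00048). It had 21.5, 14.2 and 14.95 CPM in hCD2.SII cells, against 34.7, 30.4, 31.9 and 31.2 CPM in hCD2.MEF (-0.92 ± 0.17, adjusted p = 0.004). In both lines the SII libraries lay wholly below the fibroblast libraries. Ndufa5 had 9.64, 13.2, 9.56 and 11.7 CPM in C9a.SII cells, against 20.7, 19.1, 20.2 and 21.001 CPM in C9a.MEF (-0.84 ± 0.12, adjusted p = 0.00018). It had 14.3, 7.32 and 8.42 CPM in hCD2.SII cells, against 19.5, 23.2, 21.9 and 18.97 CPM in hCD2.MEF (-1.04 ± 0.23, adjusted p = 0.01). Ndufa5 thus fell in PIB and in both SII lines, but in PIP it had 20.1 ± 1.52 CPM, against 19.2 ± 0.8294 CPM in C9a.MEF (n = 4 each; 0.06, adjusted p = 0.53). Atp5o, the oligomycin-sensitivity subunit that joins the stator of ATP synthase to its catalytic head, had 59.96, 60.2, 57.9 and 62.4 CPM in C9a.SII cells, against 78.4, 86.8, 77.2 and 87.8 CPM in C9a.MEF (-0.46 ± 0.07, adjusted p = 0.00047). In hCD2.SII cells it had 62.5, 40.5 and 43.6 CPM, against 92.1, 82.4, 82.6 and 91.9 CPM in hCD2.MEF (-0.83 ± 0.16, adjusted p = 0.005). Replicate 1 was the nearest to fibroblasts among the hCD2.SII libraries for all 3 of these genes. Sdhc fell in C9a.SII (30.9 ± 1.35 CPM, against 41.9 ± 2.70 CPM in C9a.MEF; -0.44 ± 0.08, adjusted p = 0.0011), as did Cox6a1 (46.4 ± 3.66 CPM, against 66.97 ± 2.33 CPM; -0.52 ± 0.08, adjusted p = 0.00026).

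**Figure D2:**
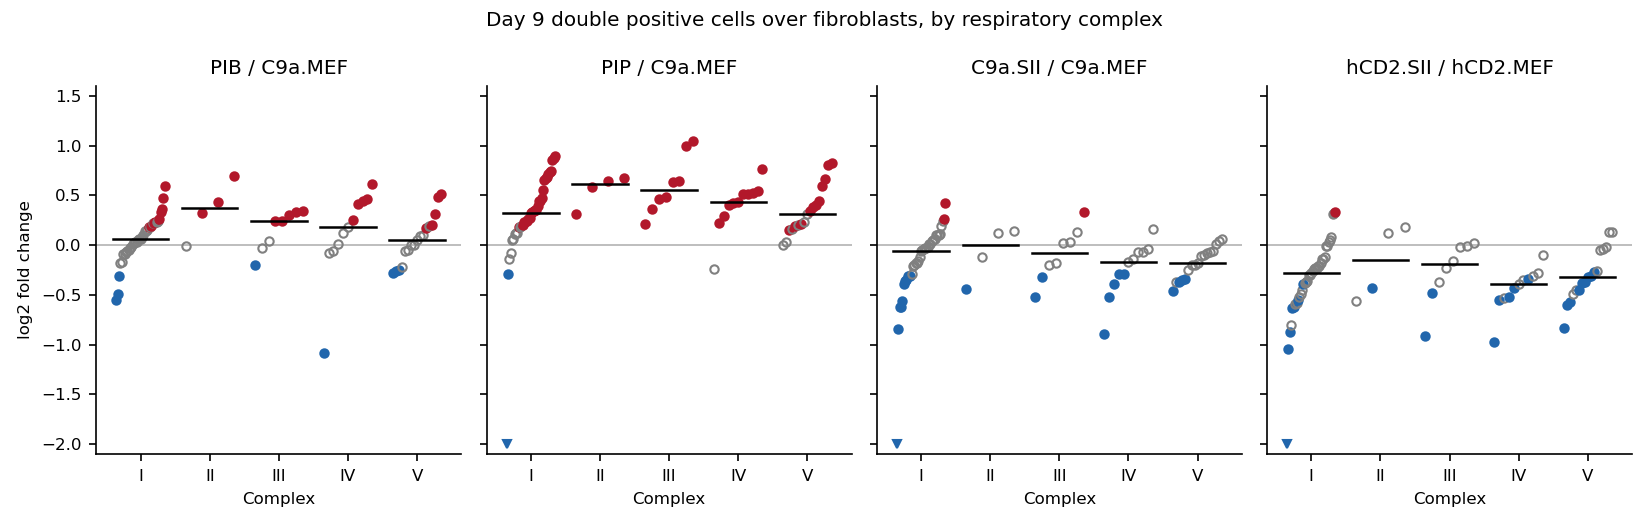
Log2 fold change of each tested member, day 9 double-positive cells over their own MEFs (vertical axis), by complex and cocktail; filled points passed the test (red higher, blue lower), open points did not, bars are medians, and triangles mark Ndufa4l2 where it lies below -2. In PIP 59 of 77 members are filled red, where 35.6% of all genes rose. In C9a.SII 23 and in hCD2.SII 24 are filled blue, where 24.3% and 17.8% of all genes fell.

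Across these 4 comparisons, of which PIB, PIP and C9a.SII share C9a.MEF, only Ndufa4l2 was called lower in all 4. Ndufa5, Atp5mpl and Atp5o were called lower in 3 and higher in none; Ndufa6, Ndufs7 and Uqcrfs1 (the Rieske iron-sulphur protein of complex III) were called higher in 3. The difference between the SII effects in the 2 lines was tested as an interaction. None of 77 members differed at an adjusted p under 0.05, where 0.292% and 0.551% of all genes did in each direction; 5 were higher in the C9a line at an unadjusted p under 0.05, and DESeq2 called none. Without hCD2.SII replicate 1, 6 members were called higher in the C9a line, a count with no share of all genes beside it. The median of the differences was then 0.25, against 0.14 with that library. This median was 0.20 without C9a.SII replicate 1 and 0.045 without hCD2.SII replicate 3.

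The paralogous subunits did not move together. Ndufa4, first assigned to complex I and now placed in complex IV, has the paralogue Ndufa4l2, known to be induced by hypoxia. By their symbols both stay under complex I in all counts by complex and in the figures. Ndufa4 rose in PIP at day 9, where it had 46.4, 39.8, 50.01 and 39.97 CPM, against 29.2, 26.5, 21.7 and 29.4 CPM in C9a.MEF (log2 fold change 0.72 ± 0.10, edgeR adjusted p = 1.3e-05). Ndufa4l2 in the same cells had 0.0865, 0.280, 0.202 and 0.0943 CPM, against 5.06, 4.95, 4.40 and 4.35 CPM (-4.69 ± 0.33, adjusted p = 1.4e-09). These levels rest on 1 to 4 reads per PIP library and 8 in all, against 232 in C9a.MEF, a ratio of 0.0315 with an exact 95% interval of 0.0134 to 0.0631 that covers counting error only. In C9a.SII cells it had 1.07, 0.106, 0.266 and 0.517 CPM, against 5.36, 5.23, 4.60 and 4.58 CPM in C9a.MEF (-3.88 ± 0.39, adjusted p = 1.2e-05), with 10 reads in the C9a.SII libraries in all. In hCD2.SII cells it had 1.34, 0.149 and 0.859 CPM, against 8.39, 7.07, 5.97 and 6.87 CPM in hCD2.MEF (-3.07 ± 0.46, adjusted p = 0.0018). PIB cells kept most of it: the sum was 201 reads there, a ratio to C9a.MEF of 0.683 (0.563 to 0.8291). The log2 fold change in PIB was -0.49, and the call (adjusted p = 0.0225) ended without the low-count filter (0.15), without C9a.MEF replicate 1 or 2 (0.0604 and 0.0575) or without PIB replicate 2 or 4 (0.0503 and 0.0521). Ndufa4 itself was not called in PIB (0.15, adjusted p = 0.3) or in C9a.SII (0.05, adjusted p = 0.76). In hCD2.SII it had 23.1, 24.5 and 17.4 CPM, against 33.3, 31.6, 30.6 and 31.7 CPM in hCD2.MEF (-0.55 ± 0.14, adjusted p = 0.016), a call that ended with the replicate block (adjusted p = 0.0542).

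Cox6b2 is the testis isoform of Cox6b1, and was low in every group. It had 1.88, 2.05, 1.87, 2.19 and 3.48 CPM in PIB cells at day 9, against 4.35, 4.35, 5.92 and 4.69 CPM in C9a.MEF (log2 fold change -1.09 ± 0.21, edgeR adjusted p = 0.0007). Cox6b1 in PIB cells was not called, at 35.2 ± 4.31 CPM (n = 5), against 30.99 ± 1.94 CPM (n = 4). In PIP it was Cox6b1 that rose, with 42.9, 42.8, 44.1 and 38.5 CPM, against 29.5, 30.7, 26.7 and 30.5 CPM in C9a.MEF (0.52, adjusted p = 6.2e-06), while Cox6b2 had a log2 fold change of -0.24 (adjusted p = 0.25). Cox7a2l, a Cox7a relative that helps to join complexes III and IV into supercomplexes, rose in PIB (0.41 ± 0.07, adjusted p = 0.00013) and PIP (0.42). Cox7a2, the form of the subunit outside muscle, rose in PIP, at 25.3, 23.1, 23.7 and 23.001 CPM, against 15.3, 11.96, 13.5 and 15.1 CPM in C9a.MEF (0.77 ± 0.09, adjusted p = 1.7e-06). Of the 3 genes that encode the same c-ring subunit of ATP synthase, Atp5g3 rose in PIP (0.41), whereas Atp5g1 and Atp5g2 were not called (0.20, adjusted p = 0.11, and 0.17, adjusted p = 0.091). Cox6a1 in PIP passed only in part: its log2 fold change of 0.22 (adjusted p = 0.0427) was -0.00 by library totals, and the call also ended with the DESeq2 size factors, without the low-count filter and without any 1 library other than PIP replicate 3.

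**Figure D3:**
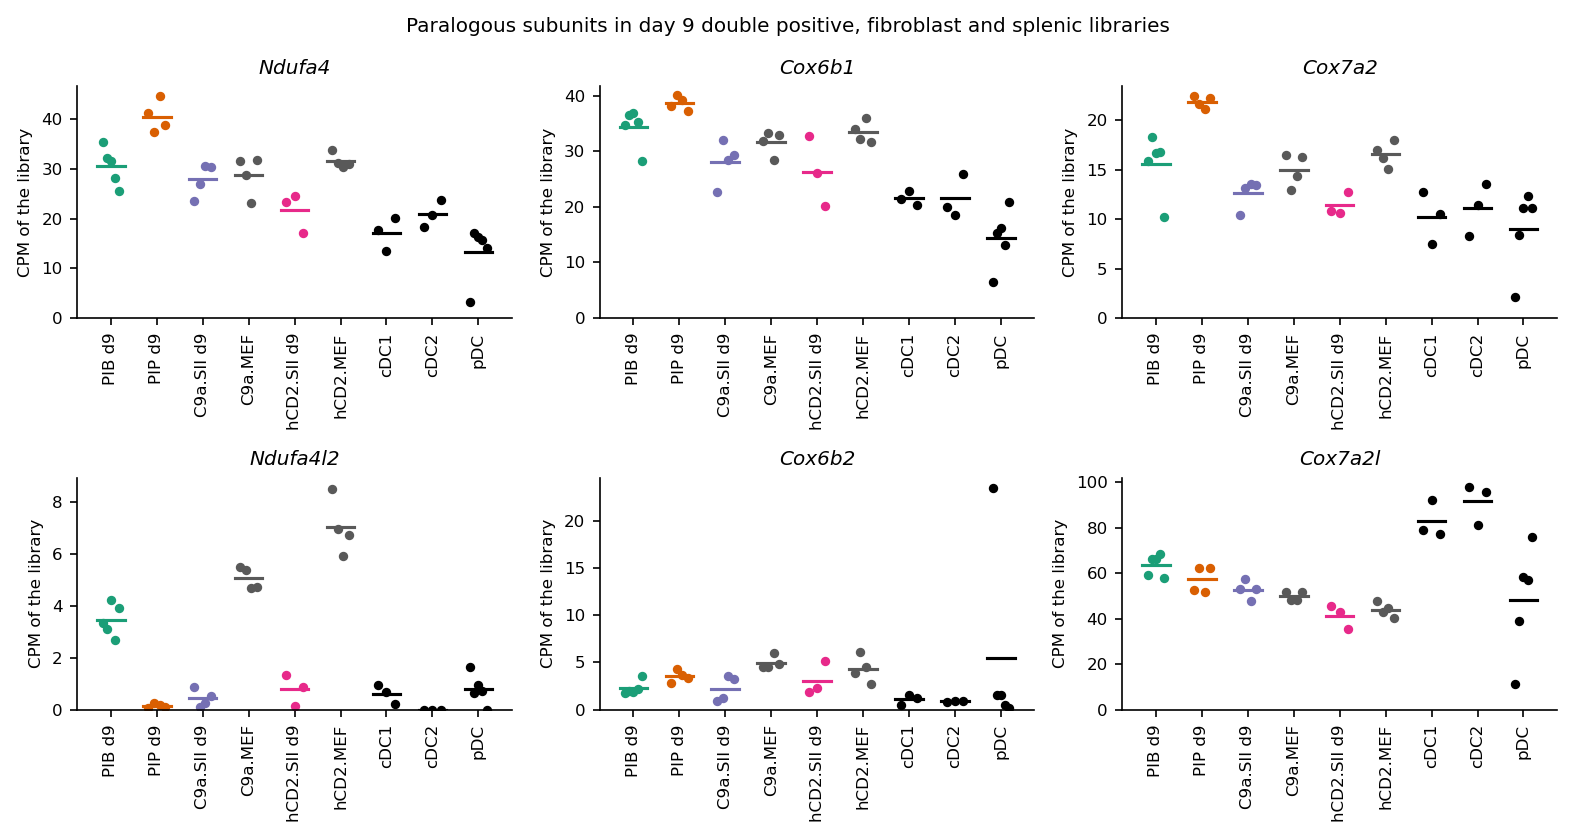
Level (CPM of the library total, linear axis) of the paralogue pairs Ndufa4 and Ndufa4l2, Cox6b1 and Cox6b2, and Cox7a2 and Cox7a2l in every library of day 9 double-positive cells, their MEFs and splenic cells. In TMM-scaled values, which are not the plotted ones, Ndufa4l2 had 4.35 to 5.06 CPM in C9a.MEF and at most 0.280 CPM in PIP cells. Ndufa4 is higher in PIP than in C9a.MEF.

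Lists of related genes were set beside the members, and their counts stand against the shares of all genes, of which 29.1% rose and 27.8% fell in PIB, 35.6% and 32.5% in PIP, 23.4% and 24.3% in C9a.SII, and 20.2% and 17.8% in hCD2.SII. Of the 13 subunits encoded in mitochondrial DNA, several rose in each cocktail at day 9: 5 in PIB, 12 in PIP, 11 in C9a.SII and 5 in hCD2.SII, with 1 lower in C9a.SII and none lower elsewhere. PIB replicate 5 was low in them, as given above. Their median log2 fold changes were 0.62, 0.80, 0.46 and 0.55, against 0.10, 0.37, -0.12 and -0.31 for the nuclear members. In both SII lines the mitochondrial and nuclear medians thus had opposite signs. Of 78 mitochondrial ribosomal proteins, 14 rose and 11 fell in PIB, 32 and 6 in PIP, 2 and 23 in C9a.SII, and 1 and 27 in hCD2.SII (medians 0.03, 0.19, -0.21 and -0.35). Of 44 assembly factors of the complexes, 14 (31.8%, near the share of all genes) rose and 8 fell in PIB, 19 and 4 in PIP, 5 and 9 in C9a.SII, and 2 and 7 in hCD2.SII. Coa5, an assembly factor of complex IV, rose in all 4 (log2 fold changes 0.96, 1.27, 0.99 and 0.77), and Tmem70, needed to assemble ATP synthase, fell in all 4 (-0.63, -0.86, -0.73 and -0.96). Cytosolic ribosomal proteins fell in every cocktail: 67, 64, 50 and 71 of 78, with medians of -0.34, -0.36, -0.31 and -0.67.

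Glycolysis genes were mostly lower in PIP and in both SII lines. Of 17 glycolysis genes, 5 rose and 3 fell in PIB, whereas 2 rose and 15 fell in PIP, 1 and 10 in C9a.SII, and 1 and 10 in hCD2.SII (medians 0.08, -0.90, -0.49 and -0.67). Pfkl, which encodes the liver form of phosphofructokinase, and Slc2a1, a glucose transporter, fell in PIP by 2.26 and 2.16 on the log2 scale. Of 13 enzymes of the tricarboxylic acid (TCA) cycle, 7 (53.8%) rose and 2 fell in PIP, 4 (30.8%, near the share of all genes) and 2 in PIB, 2 and 6 in C9a.SII, and 1 and 6 in hCD2.SII. The list of 12 regulators of mitochondrial biogenesis had 3 higher and 4 lower in PIP, where 35.6% and 32.5% of all genes were. Its largest change was in Ppargc1b, a coactivator of respiratory gene transcription, with 12.45 ± 2.70 CPM in PIP cells, against 1.198 ± 0.254 CPM in C9a.MEF (3.36). Esrra, the nuclear receptor that Ppargc1b is known to coactivate, rose in PIP (0.98) and PIB (0.64).

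Of 6 further respiratory genes outside the rule, Cox4i2, an oxygen-regulated isoform of complex IV, fell in all 4 cocktails (log2 fold changes -3.63 in PIB, -2.46 in PIP, -3.89 in C9a.SII and -2.56 in hCD2.SII). Atpif1, the inhibitor protein of ATP synthase, rose in PIB (0.61) and PIP (1.02) and fell in C9a.SII (-0.43) and hCD2.SII (-0.89). Cycs, somatic cytochrome c, rose in PIP (0.72) and fell in hCD2.SII (-0.63).

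**Figure D4:**
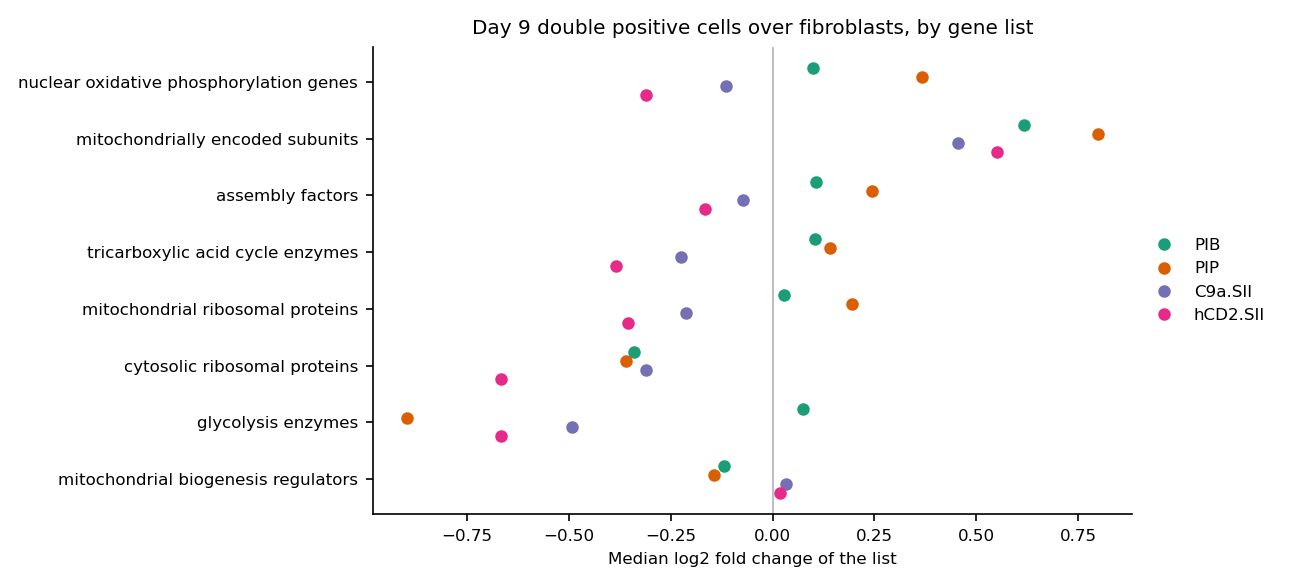
Median log2 fold change (horizontal axis) of the nuclear members and of the other gene lists in the 4 comparisons of day 9 cells with their MEFs. The mitochondrially encoded subunits have positive medians in all 4 (0.62, 0.80, 0.46 and 0.55), the nuclear members positive ones in PIB and PIP and negative ones in both SII lines.

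At day 3 the members' median had, with TMM factors, the sign of day 9 in each cocktail, while in PIB it turned with the scaling. In PIB cells 38 members rose and 3 fell relative to C9a.MEF, where 29% and 28.5% of all genes did; 6 fell without PIB replicate 1. The members' median was 0.22 with TMM factors, where all genes were at 0.02, and -0.015 by library totals, where all genes were at -0.21 and 13 members rose and 12 fell. Relative to all genes the median was 0.19 under both. Without the low-count filter 11 rose and 5 fell. In PIP cells at day 3, 23 rose and 1 fell, where 24.3% and 23.5% of all genes did (median 0.29). The count of 23 was 53 without PIP replicate 3, and 15 without PIP replicate 1 or 2. In C9a.SII cells 2 rose and 12 fell, where 17.7% and 17.6% of all genes did (median -0.15); without C9a.SII replicate 4, 23 fell and the median was -0.24. The 2 that rose were 0 without any 1 C9a.MEF library, 1 without C9a.SII replicate 1 or 3, and 4 without C9a.SII replicate 2. In hCD2.SII cells 12 rose and 24 fell relative to hCD2.MEF, where 27.7% and 28.6% of all genes did (median -0.10).

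In PIB cells at day 3 the largest rise was in Ndufa4. It had 60.3, 61.4 and 64.1 CPM in PIB replicates 2 to 4 at day 3, with replicate 1 between the last 2, against 28.98, 26.3, 21.5 and 29.2 CPM in C9a.MEF (log2 fold change 1.24 ± 0.09, edgeR adjusted p = 5.1e-08). At day 9 PIB cells had 34.6, 30.7, 29.5, 26.1 and 22.9 CPM, against 63.7, 59.95, 61.6 and 64.1 CPM at day 3 in the same scaling (-1.11 ± 0.10, adjusted p = 9.5e-06). No day 9 library reached the lowest day 3 library. Atp5k, subunit e of ATP synthase, had 24.9, 27.3, 25.1 and 38.1 CPM in PIB cells at day 3, against 16.4, 14.6, 15.2 and 16.9 CPM in C9a.MEF (0.87 ± 0.13, adjusted p = 7.7e-05). Sdhd had 29.5, 32.4, 30.96 and 25.8 CPM in PIB cells at day 3, against 17.8, 17.2, 18.96 and 22.5 CPM (0.63 ± 0.10, adjusted p = 0.00014). In both genes every PIB library exceeded every fibroblast library. In PIP cells at day 3, Atp5c1 (the gamma subunit that turns inside the catalytic head) had 131.4, 131.8 and 96.4 CPM, against 70.3, 75.2, 69.6 and 70.4 CPM in C9a.MEF (0.75 ± 0.11, adjusted p = 0.00089). Ndufa6 had 46.8, 40.6 and 43.02 CPM, against 27.1, 23.9, 26.9 and 27.97 CPM (0.72 ± 0.09, adjusted p = 0.00029). In the SII lines Ndufa5 and Uqcrb were among the members that fell at day 3. Ndufa5 had 8.95, 6.72, 9.26 and 11.003 CPM in C9a.SII cells at day 3, against 21.01, 19.3, 20.5 and 21.3 CPM in C9a.MEF (-1.18 ± 0.15, adjusted p = 0.00034). It had 7.52, 9.42, 8.30 and 7.65 CPM in hCD2.SII cells at day 3, against 18.8, 22.8, 21.4 and 18.5 CPM in hCD2.MEF (-1.31 ± 0.12, adjusted p = 5.1e-06). Uqcrb averaged 18.1 ± 5.39 CPM in C9a.SII cells at day 3, against 31.6 ± 0.746 CPM in C9a.MEF (SD, n = 4 each; -0.80 ± 0.18 SE, adjusted p = 0.0076), and 16.96 ± 1.32 CPM in hCD2.SII cells, against 31.2 ± 1.58 CPM in hCD2.MEF (n = 4 each; -0.88 ± 0.09, adjusted p = 1.3e-05). Cox7a2l rose in hCD2.SII at day 3, to 82.2, 74.1, 79.4 and 82.4 CPM, against 45.3, 42.6, 44.1 and 40.2 CPM in hCD2.MEF (0.89 ± 0.07, adjusted p = 1.8e-06). It was lower again at day 9, with 45.2, 42.6 and 35.4 CPM, against 81.7, 73.1, 77.5 and 81.6 CPM at day 3 (-0.93 ± 0.12, adjusted p = 0.0032).

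Between day 3 and day 9, 20 of 77 members were called in PIB cells and at most 5 in each of the other cocktails. All genes were also called most often in PIB, so this contrast is not particular to the members. In PIB 2 were higher and 18 lower at day 9 than at day 3, where 18.1% and 19.1% of all genes were, with a median of -0.14. By library totals, which put all genes at 0.19 in place of -0.02, 8 were higher and 1 lower (median 0.07), so the direction of the set turned with the scaling; relative to all genes the median was -0.12 with TMM factors and -0.11 by totals. Without the low-count filter 10 were higher and 8 lower (median 0.00). The 2 higher were 5 without PIB day 9 replicate 1, 4 without PIB day 3 replicate 1, 0 without PIB day 3 replicate 4, and 1 without PIB day 3 replicate 2 or 3 or without PIB day 9 replicate 2, 3 or 5. In PIP 2 were higher and 1 lower, where 7.77% and 7.30% of all genes were (median 0.11, and 0.003 without PIP day 3 replicate 3). None of these 3 calls stood when PIP day 3 replicate 1 or 2 or PIP day 9 replicate 1 was left out; without PIP day 3 replicate 3, 4 were lower, and without PIP day 9 replicate 4 none were higher. Each of PIP day 9 replicates 2 and 3, when left out, gave 1 higher and 0 lower. In C9a.SII none were called in either direction by edgeR, where 0.0965% and 0.00643% of all genes were; at an unadjusted p under 0.05, 1 was higher and 2 lower, and DESeq2 called none. In hCD2.SII 2 were higher and 3 lower, where 6.54% and 5.20% of all genes were (median -0.17). Without hCD2.SII day 9 replicate 1, 21 were lower and the median was -0.28 (-0.11 without hCD2.SII day 9 replicate 3); without hCD2.SII day 3 replicate 3 or 4 or hCD2.SII day 9 replicate 3, 1 was lower. The 2 higher were 0 without hCD2.SII day 3 replicate 3 or 4 or hCD2.SII day 9 replicate 2, and 1 without hCD2.SII day 3 replicate 2 or hCD2.SII day 9 replicate 3. No share of all genes is given for the fits with a library left out.

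Set against each other at day 9, the cocktails of the C9a line ranked PIP, PIB and C9a.SII. In PIB relative to PIP cells 3 members were higher and 42 lower, where 26.2% and 26.4% of all genes were (median -0.26; all genes -0.01). By library totals all genes were at 0.13 and the members at -0.12, with 6 higher and 24 lower, and without the low-count filter 26 were lower. Ndufs8 had 12.3, 10.4, 12.5, 11.6 and 12.3 CPM in PIB cells, against 21.1, 23.3, 23.5 and 30.3 CPM in PIP cells (log2 fold change -1.05 ± 0.11, edgeR adjusted p = 4.2e-06). Uqcrh had 49.7, 48.05, 43.04, 45.1 and 36.6 CPM in PIB cells, against 75.7, 70.4, 77.8 and 71.6 CPM in PIP cells (-0.73 ± 0.08, adjusted p = 7.6e-06). Atp5a1 had 270.0, 285, 284, 264 and 339 CPM, against 472, 469.8, 442 and 475 CPM (-0.69 ± 0.07, adjusted p = 3.4e-06). No PIB library reached the lowest PIP library in these 3 genes. Among the 3 higher were Ndufa4l2, with 3.37, 3.02, 4.01, 2.54 and 3.60 CPM in PIB cells, against 0.0831, 0.275, 0.195 and 0.0933 CPM in PIP cells, and the complex I subunit Ndufb4 (0.43 ± 0.10, adjusted p = 0.0025).

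In PIB relative to C9a.SII cells 31 members were higher and 0 lower, where 20.9% and 18.6% of all genes were (median 0.25); by library totals 19 were higher. None was lower at an unadjusted p under 0.05 or by DESeq2. Ndufc1, a small accessory subunit of complex I, had 14.7, 12.9, 10.4, 11.1 and 11.8 CPM in PIB cells, against 4.19, 7.42, 5.76 and 5.65 CPM in C9a.SII cells (log2 fold change 1.00 ± 0.17, edgeR adjusted p = 0.00058). Uqcrb had 33.5, 37.7, 37.5, 37.1 and 35.3 CPM, against 23.1, 19.4, 22.5 and 21.4 CPM (0.76 ± 0.09, adjusted p = 4.2e-05). In PIP relative to C9a.SII cells 64 of 76 members were higher and 0 lower, where 23.7% and 22.1% of all genes were (median 0.54), and none was lower at an unadjusted p under 0.05 or by DESeq2; by library totals 38 were higher and the median was 0.40, with all genes at -0.14 in place of 0.01. All 4 members of complex II and all 8 of complex III were among them, with 28 of 36 in complex I, 9 of 11 in complex IV and 15 of 17 in complex V. Uqcrh had 76.5, 69.8, 78.03 and 70.5 CPM in PIP cells, against 17.6, 33.1, 39.4 and 33.7 CPM in C9a.SII cells (1.19 ± 0.17, adjusted p = 0.00019). Sdhc had 48.01, 52.1, 38.4 and 52.97 CPM, against 28.4, 27.5, 30.2 and 28.2 CPM (0.74 ± 0.11, adjusted p = 0.00032). The lowest Uqcrh value is that of the C9a.SII library of 1146927 counts; the other C9a.SII libraries were still below all PIP libraries.

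The untransduced MEFs of the 2 lines were close to each other. In C9a.MEF relative to hCD2.MEF 2 members were higher and 3 lower of 77, where 10.4% and 10.3% of all genes were, and the median log2 fold change was 0.01 (-0.003 to 0.022 with 1 library left out at a time). Cox6a1 had 71.4, 68.6, 66.2 and 66.3 CPM in C9a.MEF, against 56.1, 50.1, 48.9 and 56.7 CPM in hCD2.MEF (0.36 ± 0.06, edgeR adjusted p = 0.00077). The 3 lower were 1 without C9a.MEF replicate 1 or 2, 0 without C9a.MEF replicate 3 and 7 without hCD2.MEF replicate 4. The 2 higher were 1 without C9a.MEF replicate 2 or 3 or without hCD2.MEF replicate 2 or 3.

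Among the splenic cells fewer members were called higher in cDC1 than in cDC2. Of 75 members, 7 were higher and 24 lower in cDC1 than in cDC2, where 30.8% and 28.8% of all genes were (median -0.24, and -0.38 without cDC2 replicate 1). The share of members lower in cDC1 was thus near that of all genes, and the share higher in cDC1 was below it. Without the low-count filter 2 members were higher and 46 lower. The 7 higher were 4 without cDC1 replicate 1, 2 without cDC2 replicate 1 and 3 without cDC2 replicate 2. The cDC1 libraries matched their label, with 5 cDC1 markers summing to 2053 to 2086 CPM, and the cDC2 libraries theirs, at 1420 to 1477 CPM for 5 cDC2 markers. In complex I, 15 members were lower and 3 higher. Ndufb4 had 9.45, 8.57 and 8.45 CPM in cDC1, against 15.03, 19.7 and 20.9 CPM in cDC2 (log2 fold change -1.07 ± 0.20, edgeR adjusted p = 0.00011). Ndufa7 had 25.4, 28.99 and 29.8 CPM in cDC1, against 15.97, 18.5 and 18.05 CPM in cDC2 (0.68 ± 0.16, adjusted p = 0.0007). Both are accessory subunits of complex I, and the subsets did not overlap in either. Sdha had 104.1, 90.3 and 88.9 CPM in cDC1, against 133.5, 122.5 and 143.2 CPM in cDC2 (-0.49 ± 0.10, adjusted p = 0.00022). Cox6c, a small complex IV subunit, had 79.9, 69.4 and 78.2 CPM, against 104.1, 123.8 and 111.7 CPM (-0.58 ± 0.10, adjusted p = 6.3e-05).

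The pDC libraries varied widely, with summed levels of 1021, 2544, 2609, 2673 and 3244 CPM, the lowest in replicate 1. In cDC1 relative to pDC no member was called by edgeR, where 8.41% and 8.14% of all genes were; 3 were higher and 0 lower at an unadjusted p under 0.05, and DESeq2 called 1. Without pDC replicate 1, 2 were higher and 3 lower, and without pDC replicate 5, 2 were higher. The median was 0.13, but -0.044 without pDC replicate 1 and 0.32 without pDC replicate 5, so its direction turned with 1 library. In cDC2 relative to pDC 3 were higher and 1 lower, where 15% and 24.1% of all genes were (median 0.46, and 0.26 without pDC replicate 1). The 3 higher were 12 without pDC replicate 1, 16 without pDC replicate 5, 6 without pDC replicate 4, 1 without pDC replicate 2 or 3 or cDC2 replicate 1 or 2, and 0 without cDC2 replicate 3. The 1 lower was 2 without pDC replicate 1 and 0 without pDC replicate 2 or 3 or any 1 cDC2 library.

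Against splenic cells, day 9 PIB and PIP cells had higher levels of most members. The summed level of C9a.MEF given above was also higher than those of cDC1 and cDC2, so this was not particular to transduced cells. Splenic cells were freshly isolated and the others came from culture, and the part of that difference was not tested. PIB was set against cDC1, PIP against cDC2 and SII against pDC. In PIB relative to cDC1 cells 65 members of 77 were higher and 2 lower, where 37.3% and 40.2% of all genes were. The median was 0.86, with all genes at -0.11; by library totals the members' median was 0.55, with all genes at -0.41 and 8 members lower, and relative to all genes it was 0.96 under both. Of the 65, 29 were at least 2-fold higher, where 25.4% of all genes were. The 2 lower were 0 without cDC1 replicate 1 and 1 without cDC1 replicate 3. All 4 complex II members were higher, as were 32 in complex I (1 lower), 7 in complex III, 10 in complex IV and 12 in complex V (1 lower). Sdhc had 44.1, 46.1, 45.5, 45.3 and 41.3 CPM in PIB cells, against 12.2, 11.8 and 11.6 CPM in cDC1 (log2 fold change 1.90 ± 0.11, edgeR adjusted p = 8.1e-10). Cox6a1 had 67.2, 71.5, 72.9, 69.8 and 60.5 CPM, against 28.9, 20.9 and 22.9 CPM (1.49 ± 0.12, adjusted p = 3.7e-08). Atp5d, the delta subunit of ATP synthase, had 93.04, 104.4, 101.99, 100.03 and 113.2 CPM, against 47.7, 43.03 and 46.9 CPM (1.16 ± 0.09, adjusted p = 3.2e-08). Every PIB library was above every cDC1 library in these genes. Uqcr11, a small subunit of complex III, had 28.2 ± 1.90 CPM in PIB cells (n = 5) and 10.3 ± 1.73 CPM in cDC1 (n = 3; 1.45 ± 0.14, adjusted p = 2.7e-07). Atp5e, the epsilon subunit, was among the 2 lower, with 21.9, 23.1, 19.3, 22.5 and 18.1 CPM in PIB cells, against 31.2, 26.7 and 27.8 CPM in cDC1 (-0.45 ± 0.12, adjusted p = 0.0037); the call ended without the low-count filter (-0.13, adjusted p = 0.463) and without cDC1 replicate 1 (-0.26, adjusted p = 0.104). Glycolysis genes were higher too, 17 of 17 (median 2.54), and cytosolic ribosomal proteins lower, 64 of 78 (median -0.54).

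In PIP relative to cDC2 cells 54 of 76 members were higher and 3 lower, where 40% and 38.4% of all genes were (median 0.59; all genes 0.04). By library totals the median was 0.42 with 6 lower and all genes at -0.13. At least 2-fold higher were 20, where 29.3% of all genes were. All 4 members of complex II and all 8 of complex III were higher. Sdhc had 47.4, 53.1, 37.6 and 54.1 CPM in PIP cells, against 14.4, 16.1 and 18.1 CPM in cDC2 (log2 fold change 1.56 ± 0.14, edgeR adjusted p = 3.3e-08). Atp5g3 had 66.1, 66.9, 67.2 and 63.4 CPM, against 26.5, 29.2 and 31.8 CPM (1.17 ± 0.09, adjusted p = 7.9e-09). Ndufa1, an X-linked subunit needed to assemble complex I, had 21.4, 21.3, 13.2 and 20.9 CPM, against 5.02, 6.92 and 8.02 CPM (1.52 ± 0.21, adjusted p = 6.5e-06). None of these overlapped between the groups. Cox7a2l was lower in PIP than in cDC2 cells, with 56.6, 66.03, 55.4 and 64.04 CPM, against 90.03, 74.9 and 93.02 CPM (-0.51 ± 0.10, adjusted p = 0.00021). The 3 lower were 1 without cDC2 replicate 3. Cox6b2 had 3.06, 4.52, 3.93 and 3.47 CPM in PIP cells, against 0.752, 0.831 and 0.902 CPM in cDC2 (2.16 ± 0.34, adjusted p = 2.4e-05).

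Against pDC, C9a.SII cells had 12 of 74 members higher and 0 lower, where 22.1% and 22.5% of all genes were (median 0.47, and 0.28 without pDC replicate 1). The 12 were 25 without pDC replicate 5, 6 without pDC replicate 2, 4 without pDC replicate 3 or C9a.SII replicate 2, and 3 without C9a.SII replicate 3 or 4; none was lower at an unadjusted p under 0.05 or by DESeq2, and 1 was lower with pDC replicate 1 left out. Ndufb6 had 10.6, 11.3, 10.9 and 12.1 CPM in C9a.SII cells, against 1.80, 5.39, 2.72, 5.50 and 6.05 CPM in pDC, a call (adjusted p = 0.013 by edgeR) that ended without C9a.SII replicate 4 (adjusted p = 0.0525) and without the low-count filter (adjusted p = 0.0733). The same gene was also 1.97 ± 0.22 higher on the log2 scale in PIB than in cDC1 cells (adjusted p = 1.3e-06). In hCD2.SII cells relative to pDC no member of 76 was called by edgeR, where 16.6% and 18.7% of all genes were; 5 were higher and 0 lower at an unadjusted p under 0.05, and DESeq2 called 4. Without pDC replicate 1, 9 were higher, and without pDC replicate 5, 8. The median of 0.34 was 0.15 without hCD2.SII replicate 1, 0.51 without hCD2.SII replicate 3 and 0.59 without pDC replicate 5.

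**Figure D5:**
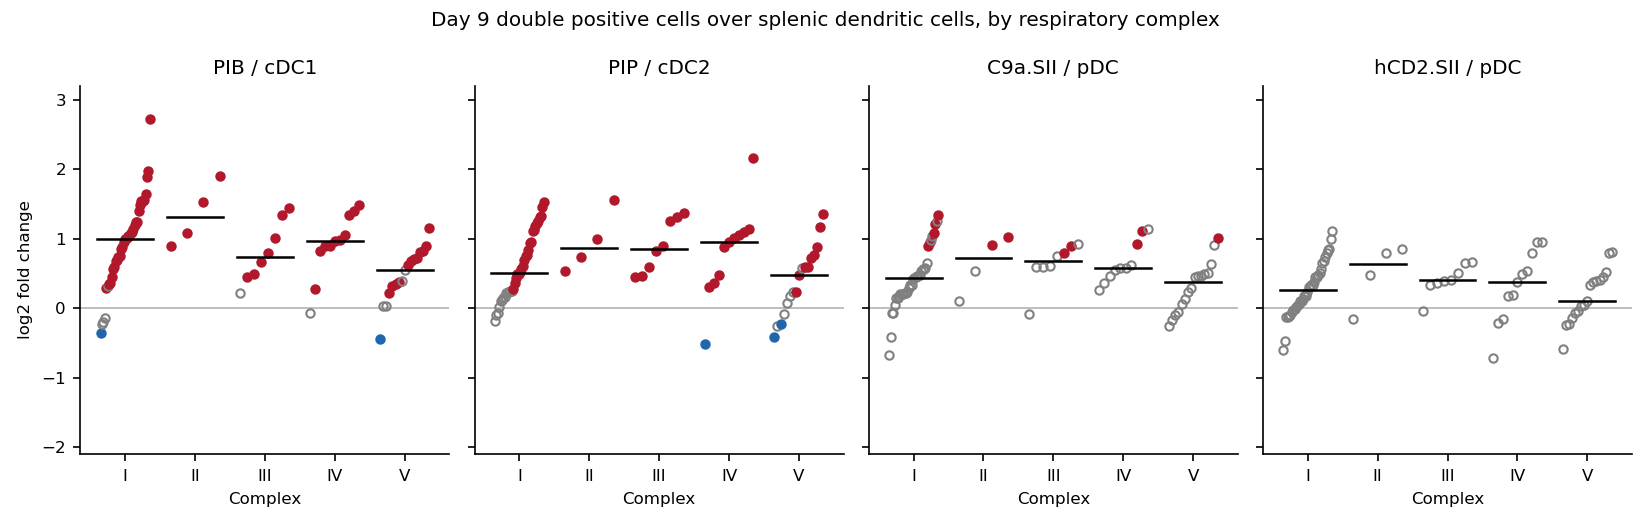
Log2 fold change of each tested member (vertical axis), day 9 double-positive cells over splenic cells, by complex; filled points passed the test (red higher, blue lower), open points did not, and bars are medians. Of the members 65 of 77 are filled red for PIB over cDC1 and 54 of 76 for PIP over cDC2, where 37.3% and 40% of all genes were higher. For C9a.SII over pDC 12 of 74 are filled red, where 22.1% of all genes were higher. For hCD2.SII over pDC none are, where 16.6% of all genes were higher.

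Over all 41 groups the SD of the group mean log2(CPM + 1) was largest in Ndufa4l2, at 0.82, whose group means ran between 0 CPM in cDC2 and 7.03 CPM in hCD2.MEF. The 3 cDC2 libraries held 0 reads of it, which allows up to 0.127 CPM (3 counts over the group). Next came Uqcrb, at 0.51, between 12.6 CPM in hCD2.SII day 9 CD45+ cells and 40.7 CPM in PIB day 6 tdT+ cells, and Cox6b2, at 0.49, between 0.883 CPM in cDC2 and 8.30 CPM in PIP day 3 tdT+ cells. Both of the last named groups contain a library that went against its label; without the 3 such libraries the SDs were 0.85, 0.52 and 0.48, the highest Uqcrb mean was 45.03 CPM in PIP day 3 tdT+ cells, and the Cox6b2 mean there was 7.80 CPM. The smallest values, 0.02 for Cox8c and 0.04 for Cox7b2 and Cox8b, belong to isoforms that were near 0 in all groups. Among expressed members, chosen after their values were seen, Ndufb10, a complex I subunit, varied least, with an SD of 0.15 and means between 42.1 CPM in cDC1 and 64.5 CPM in double-positive PIP cells at day 6.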

How the data were processed

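Total RNA from 5000 sorted cells per extraction was made into libraries with a stranded kit for picogram input and 13 to 14 PCR cycles, per the labels' protocols. Values deposited by the authors are raw read counts for each gene identifier; the authors' processing notes name STAR 2.7.9a, Salmon 1.10.1 and build mm10. Which tool gave the counts, the strand setting and the annotation are not given in the sources used here, so overlapping genes, antisense genes and pseudogene copies may share reads. Names came from GENCODE M21 and were found for 52081 of 57010 identifiers; the 4929 without a name took 5.96% to 32.1% of counts and stayed in the totals.

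Each of 23 two-group comparisons and 1 interaction was fitted on its own libraries with edgeR 4.0.16 in R 4.3.3 (TMM, filterByExpr, robust quasi-likelihood F test, Benjamini-Hochberg adjustment over all genes tested). A call is an adjusted p under 0.05. Shares of all genes called are those of the fits as reported, and counts from other settings or with a library left out have none beside them. DESeq2 1.42.0 was an alternative. Levels over all groups are CPM of the library total; values within a comparison are TMM-scaled CPM. Identical libraries were looked for in 266 pairs within groups and none were found. The fits were tested on simulated data, where small changes were called less often for C9a.SII and hCD2.SII than for PIB and PIP, so counts of calls in different cocktails do not rest on equal power. The deviations of every same-numbered pair of libraries had a correlation above 0.1 in 1 of 24 comparisons, hCD2.SII day 9 over hCD2.MEF (0.10 to 0.16). These correlations are weak and the labels name no pairs, so the fit without a block is the one reported.

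Named members follow a rule: isoform pairs in each comparison, the called member of each complex with the largest change each way whose groups did not overlap and with at least 10 CPM in 1 group, the 3 largest each way and the most abundant uncalled member of each complex at day 9 over MEFs, the 3 most and 3 least variable, and up to 2 called genes each way per other list. Some genes that the rule names are not reported here. Members and lists were chosen with earlier results of these data known. Promoters were searched for exact motif letters.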

Additional observations from a re-analysis of the deposited data

Results flagged for a closer look

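The summed level of the members was examined in the 33 groups of 4 or 5 libraries for a library far from all others (the gap to its nearest neighbour divided by the range of the group), a check that chance alone trips in about 1 group in 20. In 3 groups a library was that far off. The library labelled PIB day 6 tdT+ replicate 4 had 5238 CPM, and the library labelled PIP day 3 tdT+ replicate 5 had 2824 CPM. Both also went against their labels in the delivered factors. In hCD2.SII day 3 YFP+ cells replicate 5 had 3591 CPM, against a group mean of 3981 ± 219 CPM that includes it. None of the 3 entered a test.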

How the results depend on the processing

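Beside the comparisons as reported, each was repeated with other scalings, without the low-count filter, with DESeq2, with a replicate block, with a 2-fold minimum and without each library in turn. Of the 591 summary values (medians and counts) with a library left out, 479 moved by less than the set limits (1.5 times for a count), and of 423 under the other settings, 306 did. Of 190 calls on named genes, 57 ended under at least 1 setting. The PIP result at day 9 and the higher levels of PIB and PIP cells than of splenic cells kept their direction in every setting. The median turned over in PIB day 3 over C9a.MEF by library totals, in PIB day 9 over PIB day 3 by library totals and without the filter, in C9a.SII day 9 over C9a.SII day 3 (-0.027 as reported) without C9a.SII day 3 replicate 3 or 4 (0.018 and 0.03) or C9a.SII day 9 replicate 1 (0.003), in cDC1 over pDC without pDC replicate 1 (-0.044), and in C9a.MEF over hCD2.MEF without hCD2.MEF replicate 3 (-0.003). The cause was not tested. Precision is limited by 3 to 5 libraries a group, and for Ndufa4l2 and Cox6b2 by few reads. Group levels moved little when scaled to totals without mitochondrial and unnamed identifiers (8 of 9 PIB groups above C9a.MEF in place of 7).

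With a minimum of 2-fold, members called higher numbered 0 in PIB day 9 over C9a.MEF, 1 in PIP day 9 over C9a.MEF, 0 in C9a.SII day 9 over C9a.MEF, 0 in hCD2.SII day 9 over hCD2.MEF, 1 in PIB day 3 over C9a.MEF, 0 in PIP day 3 over C9a.MEF and 0 in C9a.SII day 3 over C9a.MEF. Those called higher were 0 in hCD2.SII day 3 over hCD2.MEF, 0 in PIB day 9 over PIB day 3, 0 in PIP day 9 over PIP day 3, 0 in hCD2.SII day 9 over hCD2.SII day 3, 1 in PIB day 9 over PIP day 9, 2 in PIB day 9 over C9a.SII day 9 and 1 in PIP day 9 over C9a.SII day 9. Those called higher were 0 in cDC1 over cDC2, 1 in cDC2 over pDC, 29 in PIB day 9 over cDC1, 20 in PIP day 9 over cDC2, 6 in C9a.SII day 9 over pDC and 0 in C9a.MEF over hCD2.MEF. Members called lower numbered 1 in PIB day 9 over C9a.MEF, 1 in PIP day 9 over C9a.MEF, 1 in C9a.SII day 9 over C9a.MEF, 2 in hCD2.SII day 9 over hCD2.MEF, 2 in C9a.SII day 3 over C9a.MEF, 3 in hCD2.SII day 3 over hCD2.MEF and 1 in PIB day 9 over PIB day 3. Those called lower were 0 in PIP day 9 over PIP day 3, 0 in hCD2.SII day 9 over hCD2.SII day 3, 1 in PIB day 9 over PIP day 9, 1 in cDC1 over cDC2, 0 in PIB day 9 over cDC1, 0 in PIP day 9 over cDC2 and 0 in C9a.MEF over hCD2.MEF. Scaled by library totals, members called higher numbered 16 in PIB day 9 over C9a.MEF, 35 in PIP day 9 over C9a.MEF, 0 in C9a.SII day 9 over C9a.MEF, 13 in PIB day 3 over C9a.MEF, 1 in C9a.SII day 3 over C9a.MEF, 8 in PIB day 9 over PIB day 3 and 0 in PIP day 9 over PIP day 3. Those called higher were 6 in PIB day 9 over PIP day 9, 19 in PIB day 9 over C9a.SII day 9, 38 in PIP day 9 over C9a.SII day 9, 1 in cDC1 over pDC and 6 in C9a.SII day 9 over pDC. Members called lower numbered 7 in PIP day 9 over C9a.MEF, 12 in PIB day 3 over C9a.MEF, 3 in PIP day 3 over C9a.MEF, 1 in PIB day 9 over PIB day 3, 2 in PIP day 9 over PIP day 3, 24 in PIB day 9 over PIP day 9 and 8 in PIB day 9 over cDC1. Those called lower were 6 in PIP day 9 over cDC2 and 1 in C9a.MEF over hCD2.MEF. The median log2 fold change of the members was 0.15 in PIP day 9 over C9a.MEF, -0.19 in C9a.SII day 9 over C9a.MEF, -0.015 in PIB day 3 over C9a.MEF, -0.16 in hCD2.SII day 3 over hCD2.MEF, 0.072 in PIB day 9 over PIB day 3, -0.12 in PIB day 9 over PIP day 9 and 0.40 in PIP day 9 over C9a.SII day 9. That median was 0.55 in PIB day 9 over cDC1 and 0.42 in PIP day 9 over cDC2. Without the low-count filter, members called higher numbered 0 in C9a.SII day 9 over C9a.MEF, 0 in hCD2.SII day 9 over hCD2.MEF, 11 in PIB day 3 over C9a.MEF, 1 in C9a.SII day 3 over C9a.MEF, 10 in PIB day 9 over PIB day 3, 4 in PIP day 9 over PIP day 3 and 1 in hCD2.SII day 9 over hCD2.SII day 3. Those called higher were 2 in cDC1 over cDC2, 9 in cDC2 over pDC, 1 in C9a.SII day 9 over pDC and 4 in hCD2.SII day 9 over pDC. Members called lower numbered 3 in PIB day 9 over C9a.MEF, 5 in PIB day 3 over C9a.MEF, 8 in PIB day 9 over PIB day 3, 5 in hCD2.SII day 9 over hCD2.SII day 3, 26 in PIB day 9 over PIP day 9, 46 in cDC1 over cDC2 and 1 in PIB day 9 over cDC1. The median log2 fold change of the members was 0.23 in PIP day 9 over C9a.MEF, -0.23 in C9a.SII day 9 over C9a.MEF, -0.48 in hCD2.SII day 9 over hCD2.MEF, 0.065 in PIB day 3 over C9a.MEF, -0.30 in C9a.SII day 3 over C9a.MEF, 0.002 in PIB day 9 over PIB day 3 and -0.17 in PIB day 9 over PIP day 9. That median was -0.46 in cDC1 over cDC2, 1.17 in PIB day 9 over cDC1 and 0.23 in the SII difference between lines.

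With the replicate number as a block, members called higher numbered 0 in hCD2.SII day 9 over hCD2.MEF, 14 in PIP day 3 over C9a.MEF, 1 in C9a.SII day 3 over C9a.MEF, 0 in PIB day 9 over PIB day 3, 0 in PIP day 9 over PIP day 3, 0 in hCD2.SII day 9 over hCD2.SII day 3 and 6 in cDC1 over pDC. Those called higher were 45 in cDC2 over pDC, 30 in C9a.SII day 9 over pDC and 2 in hCD2.SII day 9 over pDC. Members called lower numbered 11 in hCD2.SII day 9 over hCD2.MEF, 5 in PIB day 3 over C9a.MEF, 7 in C9a.SII day 3 over C9a.MEF, 0 in PIP day 9 over PIP day 3, 1 in hCD2.SII day 9 over hCD2.SII day 3 and 1 in PIB day 9 over cDC1. The median log2 fold change of the members was 0.65 in cDC1 over pDC and 0.97 in cDC2 over pDC. Each same-numbered pair had a correlation above 0.1 only in hCD2.SII day 9 over hCD2.MEF, where the correlations were still weak. Elsewhere the block rests on a shared number alone.

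By DESeq2, members called higher numbered 1 in cDC1 over pDC, 8 in cDC2 over pDC and 4 in hCD2.SII day 9 over pDC. Members called lower numbered 2 in PIP day 9 over PIP day 3 and 5 in hCD2.SII day 9 over hCD2.SII day 3. With the DESeq2 size factors in edgeR, members called higher numbered 5 in cDC2 over pDC and 3 in hCD2.SII day 9 over pDC. With 1 library left out at a time, members called higher ran 0 to 5 in C9a.SII day 9 over C9a.MEF, 0 to 0 in hCD2.SII day 9 over hCD2.MEF, 15 to 53 in PIP day 3 over C9a.MEF, 0 to 4 in C9a.SII day 3 over C9a.MEF, 0 to 5 in PIB day 9 over PIB day 3 and 0 to 2 in PIP day 9 over PIP day 3. Those called higher ran 0 to 3 in hCD2.SII day 9 over hCD2.SII day 3, 2 to 7 in cDC1 over cDC2, 0 to 2 in cDC1 over pDC, 0 to 16 in cDC2 over pDC, 3 to 25 in C9a.SII day 9 over pDC and 0 to 9 in hCD2.SII day 9 over pDC. Those called higher ran 1 to 3 in C9a.MEF over hCD2.MEF and 0 to 6 in the SII difference between lines. Members called lower ran 4 to 10 in PIB day 9 over C9a.MEF, 13 to 50 in hCD2.SII day 9 over hCD2.MEF, 3 to 6 in PIB day 3 over C9a.MEF, 8 to 23 in C9a.SII day 3 over C9a.MEF, 0 to 4 in PIP day 9 over PIP day 3 and 1 to 21 in hCD2.SII day 9 over hCD2.SII day 3. Those called lower ran 0 to 3 in cDC1 over pDC, 0 to 2 in cDC2 over pDC, 0 to 2 in PIB day 9 over cDC1, 1 to 4 in PIP day 9 over cDC2, 0 to 1 in C9a.SII day 9 over pDC and 0 to 7 in C9a.MEF over hCD2.MEF. Medians ran -0.43 to -0.26 in hCD2.SII day 9 over hCD2.MEF, -0.24 to -0.11 in C9a.SII day 3 over C9a.MEF, -0.15 to -0.089 in hCD2.SII day 3 over hCD2.MEF, -0.052 to 0.030 in C9a.SII day 9 over C9a.SII day 3, -0.28 to -0.11 in hCD2.SII day 9 over hCD2.SII day 3 and -0.38 to -0.20 in cDC1 over cDC2. Medians ran 0.78 to 0.98 in PIB day 9 over cDC1, 0.56 to 0.70 in PIP day 9 over cDC2 and 0.045 to 0.25 in the SII difference between lines. Of single genes, the log2 fold change changed sign in 4 cases: by library totals in Cox6a1 (-0.001) and Atp5j (-0.22, adjusted p = 0.0106) in PIP day 9 over C9a.MEF and in Atp5g2 in PIB day 9 over cDC1 (-0.26, edgeR adjusted p = 0.0454), and without pDC replicate 1 in Cox6b2 in hCD2.SII day 9 over pDC (2.07, adjusted p = 0.0414; -1.07 to 2.07 over the libraries left out in turn).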
